A study of Mus musculus with 4 samples.

Results

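The cells described here are Ccl5-positive CD8 T cells of the mouse lung, chosen by their own transcript counts from 4 droplet libraries of sorted immune cells. A member held at least 1 unique molecular identifier (UMI, 1 captured transcript) of Cd8b1, at least 1 of Cd3e, Cd3d or Cd3g, at least 3 of Ccl5, and 0 of Cd4, Cd79a and Mki67. Of 28805 barcodes, 27544 had more than 200 genes and under 15% mitochondrial UMIs, and 507 of these were members. DPBS WT held 135 of them, DPBS KO 83, Papain WT 170 and Papain KO 119.

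All mice were C57BL/6. WT mice were Ift20 f/f, and KO mice were Ift20 f/f CD4 cre, in which Cre driven by CD4 regulatory sequence deletes Ift20 (intraflagellar transport protein 20) in T cells. CD4-driven Cre is also active in the precursors of CD8 T cells, which pass through a CD4-expressing stage in the thymus. Papain mice received 25 µg of papain, a cysteine protease allergen, into the nose on each of 3 days, were challenged on day 14, and gave lung cells on day 15. DPBS, a buffered salt solution, took the place of papain in control mice. The sort kept living leukocytes (CD45.2-positive, 7-AAD-negative) of every kind. Each of the 4 groups was 1 library (n = 1 per group), and the number of mice behind a library is not given in the sources used here. Genotypes and treatments therefore have no replicate check, and their intervals below cover counting error only.

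The libraries held 53854420 to 75675956 UMIs, and the members' median depth was 8581, 9573, 9315 and 10720 UMIs, in the order DPBS WT, DPBS KO, Papain WT, Papain KO, which is kept for every series of 4 values below. Their Ccl5-negative counterparts were shallower, at 6486 to 7940. Across library pairs 67 barcodes were shared, and no barcode was a member in both. Some members carried transcripts of another lineage: 98 of 507 (19.3%) held at least 5 UMIs over 27 genes of a second lineage (alveolar macrophage and neutrophil markers, Lyz2, Cd74 and Ms4a1), against 13.9% of Ccl5-negative CD8 T cells. By library these were 38, 12, 32 and 16 members.

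Ccl5 is a chemokine that attracts T cells, monocytes and eosinophils. In CD8 T cells it is transcribed late after activation and stays high in memory cells, so it separates them from naive cells. Memory CD8 T cells are classed by where they travel. Central memory cells keep the lymph node homing receptor Ccr7, effector memory cells lose it and carry granzymes, and tissue-resident cells hold integrins such as CD103 (Itgae) and CD49a (Itga1). A further class, often called virtual memory, arises without foreign antigen and is known for high Il2rb and Eomes.

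The granzyme genes Gzmk and Gzma, among the 10 highest genes of the members against Ccl5-negative cells, lie close together on chromosome 13 (GRCm38, Gzma at 113093825 to 113100981 and Gzmk from 113171608, both on the minus strand). Their promoter windows (RefSeq, GRCm38.p6, 250 bases before to 50 after the start site) are shown because both hold the core AGGTGT bound by T-box factors, the family of Eomes and Tbx21. Capitals mark that core on either strand.
Gzmk, chr13:113180916-113181215: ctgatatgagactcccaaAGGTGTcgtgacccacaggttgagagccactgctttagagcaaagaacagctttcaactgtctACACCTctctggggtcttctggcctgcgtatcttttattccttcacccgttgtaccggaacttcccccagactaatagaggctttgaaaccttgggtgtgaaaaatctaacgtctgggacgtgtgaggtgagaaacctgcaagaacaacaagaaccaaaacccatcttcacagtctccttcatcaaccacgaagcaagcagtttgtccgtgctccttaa
Gzma, chr13:113100932-113101231: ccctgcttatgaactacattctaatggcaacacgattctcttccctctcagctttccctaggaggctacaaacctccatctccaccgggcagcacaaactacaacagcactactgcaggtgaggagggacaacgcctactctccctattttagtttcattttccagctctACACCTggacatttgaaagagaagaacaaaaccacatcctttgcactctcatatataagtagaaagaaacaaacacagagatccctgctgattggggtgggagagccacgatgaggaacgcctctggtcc
The cores began 232 and 169 bases before the start site in Gzmk and 80 in Gzma. Gzmb, Klra1, Klra6, Klra7, Klrc1, Klrc2, Klre1 and Klrk1, also among the 10 highest genes, held 0 such cores in their windows. Tmie, among the 10 lowest, held 1. The core was in 13.7% of all windows, in 10.4% of the windows of genes tested against Ccl5-negative cells, in 10.9% of those of the genes higher in members and in 12.2% of those of the genes lower. A RUNX core (TGTGGT, either strand) was in 12.8% of windows of tested genes, 17.5% of those of higher genes and 14.0% of those of lower genes. A match is a stretch of letters and says nothing about binding.

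Ift20 was the gene targeted in KO mice. The loxP sites flank exons 2 and 3, while the 3′ assay counts the end of the transcript, so a deleted transcript can still be counted and the count is no direct check of the deletion. In members Ift20 stood at 51.8, 14.4, 58.3 and 19.1 CPM (UMIs per 1000000 UMIs of the group), from 64, 12, 96 and 25 UMIs. Both KO libraries were lower than both WT libraries, by a log2 ratio of -1.85 in DPBS (95% interval -2.88 to -0.95) and of -1.61 after papain (-2.31 to -0.96). Ccl5-negative CD8 T cells showed nearly the same levels, at 54.1, 17.0, 53.2 and 18.6 CPM. In natural killer (NK) cells, which do not arise from CD4-expressing precursors, Ift20 was at 107, 81.4, 103 and 124 CPM and both intervals of KO against WT included 0. No library went against its genotype label in either CD8 population.

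Ccl5 itself chose the members, so its values are a description. Members held a median of 29, 40, 43 and 48 Ccl5 UMIs per cell, and up to 342, 598, 213 and 509 in a single cell. The threshold of 3 fell in a sparse region of the distribution: 8, 2, 7 and 3 members lay just inside it with exactly 3 UMIs, and 15, 11, 15 and 10 CD8 T cells just outside it with 2. Among B cells, which should lack the transcript, 0.756%, 0.305%, 0.376% and 0.576% reached 3 UMIs, at median depths of 4031 to 4960. Members were 1.46% to 2.13% of the cells kept and held 18.9%, 32.0%, 31.4% and 26% of all Ccl5 UMIs.

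**Figure D1:**
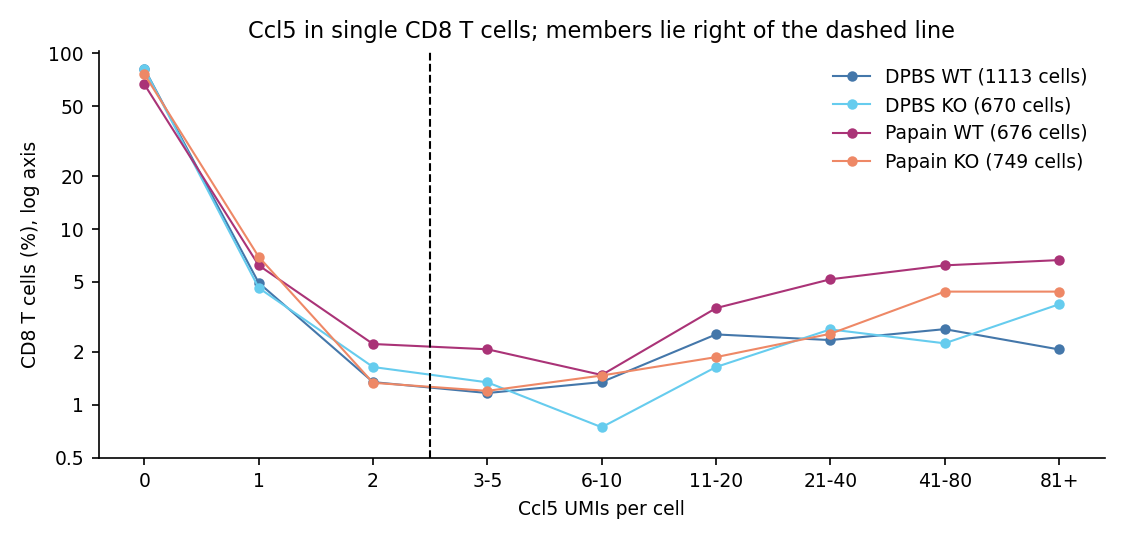
Share of CD8 T cells (%, log axis) by the number of Ccl5 UMIs per cell, 1 line per library, with the member threshold dashed. Cells with 3 to 10 UMIs were few, and the members' medians were 29, 40, 43 and 48 UMIs.

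The label of memory CD8 T cells was checked against markers outside the gate. The T cell receptor transcripts Trac (548, 514, 484 and 465 CPM) and Trbc2 (1302, 1431, 1144 and 1302 CPM) and the coreceptor Cd8a (282, 317, 283 and 277 CPM) were present in every library. Of the 5 memory markers, Ly6c2, Il2rb, Cxcr3 and Eomes were higher than in Ccl5-negative CD8 T cells by the test described next. Cd44, a memory marker usually read at the protein level, was at 153, 87.3, 183 and 113 CPM against 118, 101, 136 and 86.7, and did not pass (adjusted p = 0.11). The naive markers Lef1, Dapl1, Igfbp4 and Ccr7 were lower. Markers of other lymphocytes were also counted. Foxp3, Il4, Il5 and Il13, which mark regulatory and type 2 helper T cells, were at 0 UMIs in all members. Of 12 gamma-delta T cell markers, 4 were at 0 and the list summed to 67.0 to 83.3 CPM, against 19.2 to 28.7 in Ccl5-negative cells. All 4 markers that could be tested were higher, and 8 were not tested. A gene can enter the test through its level in members alone, so the direction of these 4 is a description. The 12 NK markers, none at 0, summed to 490 to 900 CPM against 401 to 535, with 4 of 7 tested higher and 1 lower. The 10 markers of type 2 innate lymphoid cells, 2 of them at 0, summed to 104, 175, 174 and 123 CPM against 50.4, 99.1, 113 and 65.7, higher in members in every library, and both that could be tested, Rora (1.14 ± 0.12) and Gata3 (0.62 ± 0.14), were higher. The 10 CD4 helper and regulatory T cell markers, 2 at 0, summed to 130 to 222 CPM against 112 to 168, also higher in every library, with 2 higher and 0 lower of 6 tested. The 8 invariant NKT or MAIT cell markers, 1 at 0, summed to 160 to 219 CPM against 201 to 238, with 1 higher and 1 lower of 3. Their part in the results below was not tested.

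Ccl5-positive cells were first compared with the 2470 CD8 T cells of the same gate that had no Ccl5 UMI, with counts summed per library and the libraries as pairs (edgeR quasi-likelihood test with Benjamini-Hochberg adjustment, gate genes left out). The 4 libraries are of different conditions, so p-values measure the spread of the difference between libraries. The difference in depth between these cell groups is given above. Of 9162 genes tested, 561 (6.12%) were higher and 530 (5.78%) lower in members at an adjusted p under 0.05. The filter on low counts kept a gene with enough counts in either cell group alone. Genes below that filter in Ccl5-negative cells entered through their level in members, and could hardly come out lower. Members carried more transcripts of effector, chemokine and NK receptor genes and less of naive T cell genes, with a smaller difference in the homing receptor Ccr7. Values for the genes that carry this pattern follow by role.

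Of 15 memory and effector surface genes, 12 were higher, 0 were lower and 3 did not pass, with a median log2 fold of 0.82 against 0.00 over all genes tested. Ly6c2, a surface antigen of memory CD8 T cells with a near-identical copy, Ly6c1, was at 807, 732, 820 and 801 CPM in members and 240, 139, 231 and 166 in Ccl5-negative cells. The groups did not overlap, and the log2 fold was 2.02 ± 0.10 (SE, n = 4 pairs; adjusted p = 4.4e-09). Il2rb, the receptor chain shared by interleukin 2 and interleukin 15, was at 332, 410, 455 and 365 CPM against 82.5, 100.3, 141 and 86.5 (log2 fold 1.92 ± 0.08, adjusted p = 8.3e-10). Fasl, a ligand that triggers death of Fas-bearing cells, was higher by 3.83 ± 0.22 (adjusted p = 4.3e-08).

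Naive and recirculation genes moved the other way: of 17, 9 were lower, 2 were higher and 6 did not pass. Igfbp4, a transcript of naive T cells, was at 34.0, 13.2, 20.6 and 37.4 CPM in members against 287, 263, 215 and 223 (log2 fold -3.21 ± 0.15, adjusted p = 4.4e-09). Lef1, a transcription factor of naive cells, had a log2 fold of -0.95 ± 0.06 and Dapl1 one of -1.61 ± 0.14. The gut homing receptor Ccr9 was lower by a log2 fold of -3.18 ± 0.24, and Dntt, the template-independent polymerase of developing lymphocytes, was at 0 UMIs in members and 98 in Ccl5-negative cells, at least 8.5-fold lower against a floor of 3 UMIs over the group. Ccr7, the lymph node homing receptor, was at 402, 542, 524 and 509 CPM against 505, 843, 649 and 691 (log2 fold -0.46 ± 0.06, adjusted p = 8.5e-05). Il7r, the survival cytokine receptor, did not pass (0.08 ± 0.06), nor did Tcf7 (-0.17 ± 0.06), a factor of naive and central memory cells.

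To set shares of cells side by side, each cell was thinned to 2000 UMIs, which left out 3 members and 10 Ccl5-negative cells. A Ccr7 UMI was then found in 38.1%, 43.4%, 47.0% and 46.2% of members and 55.0%, 72.1%, 62.4% and 67.3% of Ccl5-negative cells, so the ranges did not overlap. Unthinned, the members' shares were 67.4%, 73.5%, 74.1% and 74.8%. In NK cells, at median depths of 5048 to 5956 UMIs against 8581 to 10720 in members, 2.34% to 5.88% of thinned cells had one.

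Of 18 cytotoxic granule genes tested, 11 were higher, 0 were lower and 7 did not pass (median log2 fold 1.27). Gzmk was at 8.90, 45.5, 37.0 and 39.7 CPM in members and had 0 UMIs in all Ccl5-negative cells, at least 208-fold higher against the same floor of 3 UMIs. Gzmm, a granzyme of innate-like killer cells, was at 97.1, 115, 94.1 and 61.8 CPM against 3.81, 4.71, 8.54 and 2.65 (4.24 ± 0.18, adjusted p = 1.4e-09). Gzma (5.64 ± 0.16) and Gzmb (5.06 ± 0.21), the main granzymes of NK cells and effector T cells, were higher in 4 of 4 libraries but came from few members. Gzma UMIs were in 14 of 135, 17 of 83, 10 of 170 and 16 of 119 members, with up to 105, 123, 66 and 68 UMIs in 1 cell. Nkg7, a granule membrane protein, was at 887, 1001, 845 and 956 CPM against 373, 278, 377 and 336 (1.41 ± 0.09). Outside the rule for named genes, and chosen after their values were seen, Prf1, the pore-forming protein, was higher by 1.15 ± 0.12 at 58.9 to 70.6 CPM, and Ctla2a, a cathepsin inhibitor, was at 622, 730, 734 and 625 CPM against 72.5, 77.9, 107 and 77.7 (3.00 ± 0.08, adjusted p = 7.8e-12).

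Of 12 chemokine and cytokine genes tested, 5 were higher and 1 lower. Xcl1, the chemokine that draws cross-presenting dendritic cells, was at 128, 99.3, 101 and 108 CPM against 12.0, 11.8, 11.8 and 7.95 (3.31 ± 0.12, adjusted p = 4.6e-10). Ccl4, an inflammatory chemokine, was higher by 3.08 ± 0.15, its relative Ccl3 by 1.78 ± 0.23, and Ifng, the type 1 effector cytokine, by 3.5 ± 0.21. Ltb was lower by a log2 fold of -0.26 ± 0.06. Tgfb1 (-0.01 ± 0.09) did not pass. Receptors for such ligands rose too, with 7 of 12 tested genes of chemokine receptors and egress higher and 2 lower. Cxcr3, which responds to interferon-induced chemokines, was at 84.1, 63.4, 82.5 and 111 CPM against 13.1, 10.1, 24.2 and 12.9 (2.49 ± 0.17, adjusted p = 2.2e-07).

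NK receptor genes were the most frequent among the largest differences. Of the 10 genes with the highest log2 folds, 7 were Klr genes in 1 stretch of chromosome 6 (GRCm38, 129577905 to 130386874), the NK gene complex. Of 16 tested receptor and adaptor genes, 12 were higher, 2 lower and 2 did not pass (median log2 fold 3.47). The other 7 of the 23 listed were not tested. Genes as low in Ccl5-negative cells as Klrk1 and Klrc1 entered the test through their level in members. The ranking, the 12 of 16 and the median are therefore a description and no separate support. Klrk1, the activating receptor NKG2D, was at 104, 74.2, 111 and 67.9 CPM in members against 2.90, 1.41, 4.13 and 3.06 (4.91 ± 0.17, adjusted p = 2.0e-10). Klrc1, the inhibitory receptor NKG2A, was at 58.2, 99.3, 72.8 and 104 against 1.37, 0.942, 3.86 and 0.612 (5.62 ± 0.28, adjusted p = 7.4e-09). Klra6 (7.73 ± 0.49), Klra1 (6.73 ± 0.50) and Klra7 (5.53 ± 0.24) are Ly49 receptors with close paralogs, between which the counting could have split reads. Tyrobp, an adaptor also of myeloid cells, was lower (-1.14 ± 0.25, adjusted p = 0.0083), but in cells of 3000 to 8000 UMIs its log2 fold was 0.16, and Fcer1g, which did not pass (-0.55 ± 0.22), was higher by 1.30 (adjusted p = 1.1e-08) without the cells that held 5 or more UMIs of a second lineage, where Tyrobp was at -0.09. Their part in these values was not tested.

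Residency genes did not move as 1 group: of 14 tested, 4 were higher, 3 lower and 7 did not pass. Itgae, the chain of CD103, was at 6.47, 10.8, 4.86 and 5.34 CPM against 62.2, 52.3, 56.8 and 51.0 (-3.15 ± 0.19, adjusted p = 6.0e-08). Itga1 was higher (4.36 ± 0.49) but rare, with 46 UMIs in all members. Cxcr6, a homing receptor of lung resident cells, was higher by 0.68 ± 0.14 in 3 of 4 libraries, and Cd69 did not pass (0.16 ± 0.07). Zfp683, a factor of resident cells, had 1, 1, 2 and 1 UMIs.

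Among 29 tested transcription factors of CD8 differentiation, 10 were higher, 3 lower and 16 did not pass. Tbx21 was higher by 2.97 ± 0.22 (24.3, 29.9, 31.6 and 22.1 CPM against 2.59, 4.47, 4.41 and 2.24) and Eomes by 1.80 ± 0.12 (63.1, 95.7, 91.7 and 77 against 19.97, 22.4, 30.3 and 18.8). Cytokine receptors gave 9 higher and 3 lower of 20. Il18rap (2.85 ± 0.25) and Il18r1 (1.5 ± 0.16), the chains of the interleukin 18 receptor, were higher, and the interferon gamma receptor chains went in opposite directions, Ifngr1 by 0.63 ± 0.05 and Ifngr2 by -2.44 ± 0.12. T cell receptor signalling gave 14 higher and 3 lower of 29, led by the adaptors Sh2d2a (1.16 ± 0.09) and Sh2d1a (0.97 ± 0.09). In the actin, annexin and S100 list 14 of 26 were higher and 3 lower, with S100a6 (1.73 ± 0.18) and Lgals1 (1.60 ± 0.13) at the top. Of 10 inhibitory receptor genes 2 were higher and 1 lower. Pdcd1 was at 4.85, 23.9, 17.0 and 11.4 CPM (3.15 ± 0.44), Cd160 was higher by 2.47 ± 0.19, and Ctla4 did not pass (0.01 ± 0.17).

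None of 35 tested interferon-stimulated genes was higher and 9 were lower, among them Ifi27l2a (-0.74 ± 0.11). Beside the 6.12% of all genes that were higher, AKT-mTOR genes gave 23.1% (6 higher and 1 lower of 26), glycolysis 23.5% (4 and 1 of 17), cell cycle genes 20% (4 and 2 of 20) and immediate early and heat shock genes 16% (4 and 4 of 25). The TCA cycle, with 1 higher and 1 lower of 24, was nearer to it. Of 16 tested genes of intraflagellar transport and its ESCRT partners, 1 was higher (Vps28, 0.26 ± 0.08) and 2 lower (Hspb11, -0.77 ± 0.20, and Ift80, -0.66 ± 0.14). Ift20 did not pass (-0.02 ± 0.12), nor did Tsg101 (0.04 ± 0.13), named after its values were seen. Among the marker lists of other lineages, alveolar macrophage genes were lower for 4 of 13 and B cell genes for 2 of 5, and monocyte and dendritic cell genes gave 2 higher and 3 lower of 10.

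**Figure D2:**
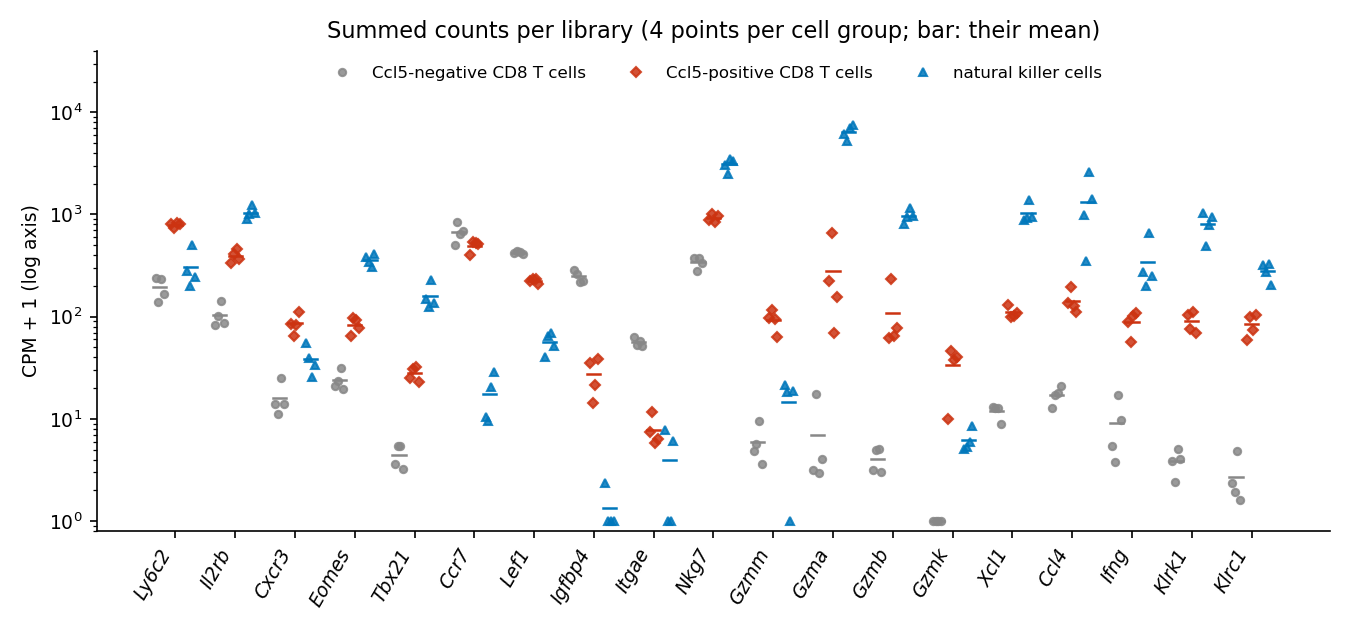
CPM + 1 (log axis) of 19 genes, with 1 point per library for Ccl5-negative CD8 T cells (grey circles), members (red diamonds) and NK cells (blue triangles) and a bar at the mean of 4. Members lay between the other groups for granzymes A and B, Xcl1, Klrk1 and Klrc1, and above both for Ly6c2, Cxcr3, Gzmm and Gzmk.

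Fewer genes were called when a library was left out. Without Papain KO, 366 genes were higher and 307 lower, and with a mitochondrial limit of 5%, which kept far fewer cells, 94 and 70. DESeq2 called 315 and 240.

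Levels also varied with the amount of Ccl5, which is a description pooled over the libraries. Ly6c2 stood at 198 CPM in CD8 T cells with no Ccl5 UMI, 320 with 1, 483 with 2, and 711, 770 and 820 in members with 3 to 5, 6 to 20 and more than 20. Il2rb ran from 98.4 to 138, 254, 310, 351 and 421 CPM over the same 6 classes. Igfbp4 ran from 252 to 188, 141, 26.7, 37.6 and 23.3 CPM. The cells with 1 or 2 Ccl5 UMIs, which belong to neither group tested, had intermediate values for these 3 genes. They were 6.27% to 8.43% of CD8 T cells by library, while 3.79% to 6.25% of B cells held at least 1 Ccl5 UMI. Median depth was 7133 UMIs in cells with 0, 8300.5 with 1 and 9724 with 2. Whether these classes mix cells of different kinds was not tested. Ccr7 did not run in 1 direction. It was at 653, 628 and 618 CPM in cells with 0, 1 and 2 Ccl5 UMIs and at 865 in the 45 members with 3 to 5. In the 118 members with 6 to 20 it was at 520, and in the 344 with more than 20 at 430. Xcl1, Eomes, Dapl1 and, among the members, Igfbp4 also changed direction over the classes.

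**Figure D3:**
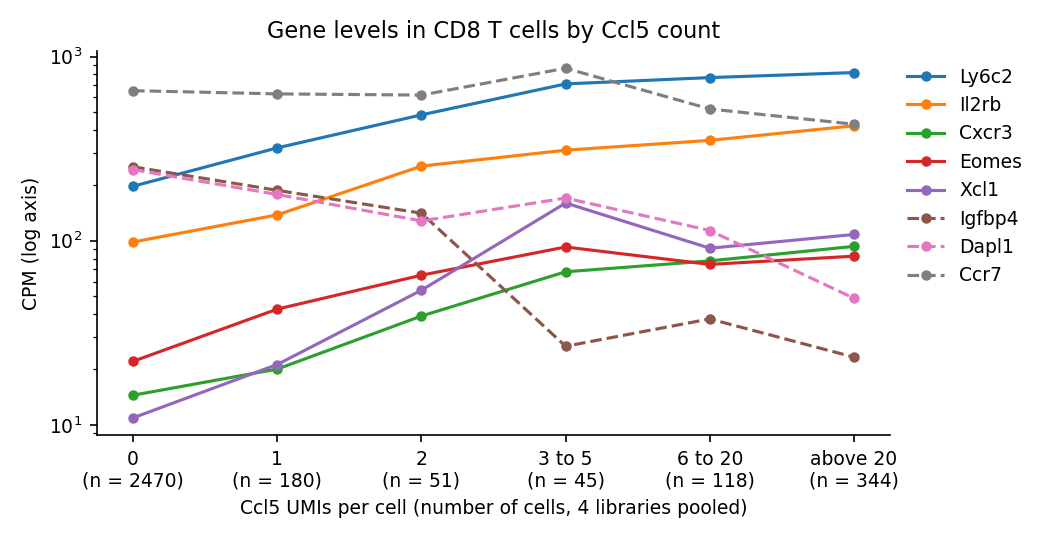
CPM (log axis) of 8 genes in CD8 T cells grouped by Ccl5 UMIs per cell, with the number of cells under each class. Ly6c2 and Il2rb (solid lines) ended at 820 and 421 CPM, and Igfbp4 and Dapl1 (dashed) at 23.3 and 48.7.

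NK cells share Ccl5 and many receptors with the members, so the same test was run against 267 NK cells (at least 1 Ncr1 UMI and 0 of the Cd3 genes, Cd8b1, Cd4, Cd79a and Mki67). Of 6705 genes tested, 701 (10.5%) were higher and 731 (10.9%) lower in members. Genes of T cells and of lymph node homing were higher in members, and granzymes and NK receptors were lower. Members were picked for Cd3 and Cd8b1 transcripts and NK cells for Ncr1 without them. Part of the difference in T cell and NK receptor genes was therefore set by the selection. Ccr7 was at 402 to 542 CPM in members and 9.45, 8.57, 19.7 and 27.8 in NK cells (log2 fold 5.28 ± 0.21, adjusted p = 5.5e-09). Of 16 tested naive and recirculation genes, 13 were higher and 0 lower. Themis, a T cell signalling protein, had 374 UMIs in members and 0 in NK cells (at least 39.0-fold higher against a floor of 3 UMIs over the group), and Cd5, a coreceptor, was higher by 6.62 ± 0.38. Ly6c2 was higher in members by 1.82 ± 0.17 and Cxcr3 by 1.47 ± 0.22.

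The granule list ran the other way, with 9 of 16 tested genes lower in members and 1 higher. Gzma was at 220, 663, 68.0 and 155 CPM in members and 6129, 5183, 7014 and 7521 in NK cells (-4.62 ± 0.47), and Gzmb had a log2 fold of -3.00 ± 0.28. Of 21 NK receptor and adaptor genes 18 were lower. The Ly49 receptor gene Klra4 (-7.09 ± 0.29) and the Klrb1 genes Klrb1a (-7.66 ± 0.36) and Klrb1b (-7.58 ± 0.35) were nearly missing from members, with 17, 3 and 3 UMIs. Cma1, a mast cell and NK cell protease, had 1 UMI in members against 269. Eomes (-1.80 ± 0.16) and Ifng (-1.50 ± 0.20) were both lower in members, although both were higher there than in Ccl5-negative CD8 T cells. Ift20 was lower in members by a log2 fold of -1.23 ± 0.29 (adjusted p = 0.0082), with the NK levels given above. This value averages over genotypes, since Ift20 was targeted in T cells only. In the WT libraries members stood at 51.8 and 58.3 CPM against 107 and 103 in NK cells, and in the KO libraries at 14.4 and 19.1 against 81.4 and 124. Without Papain KO that call was lost (-0.88, adjusted p = 0.076), and over all genes 434 were lower.

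A comparison with Ccl5-positive CD4 T cells was planned and was not run, since DPBS KO held 8 such cells, below the minimum of 10. The libraries held 18, 8, 31 and 12.

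Within the members, granzyme transcripts were set beside Ccr7 cell by cell, as a description with no test and without thinning. A Ccr7 UMI was found in 50.9% of the 106 members with a Gzma or Gzmb UMI and in 78.1% of the 401 members with neither. The shares were 44.0% and 72.7% in DPBS WT, 46.4% and 87.3% in DPBS KO and 42.3% and 83.9% in Papain KO. In Papain WT they lay closer, at 70.4% and 74.8%. Gzmk showed the same order in all 4 libraries. Of the 51 members with a Gzmk UMI 35.3% had a Ccr7 UMI, against 76.5% of the 456 without. Gzmm ran the other way over all members, with 78.9% of 180 cells against 68.8% of 327.

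Shares of the members in the 4 conditions rest on 1 library each and were not tested. Of the CD8 T cells, DPBS WT had 12.1% members (exact binomial 95% interval 10.3 to 14.2), DPBS KO 12.4% (9.99 to 15.1), Papain WT 25.1% (21.9 to 28.6) and Papain KO 15.9% (13.3 to 18.7). After papain the KO share over the WT share had a log2 value of -0.66 (-0.97 to -0.36), and in DPBS one of 0.03 (-0.34 to 0.40). Papain over DPBS came to 1.05 (0.76 to 1.35) for WT and 0.36 (-0.016 to 0.73) for KO. Papain WT stood apart from the other 3 libraries. As a share of all cells kept, however, members were 1.66%, 1.46%, 2.13% and 2.09%, and the KO to WT ratio in papain became -0.027. CD8 T cells of the gate were 13.7%, 11.7%, 8.46% and 13.1% of all cells kept, lowest in Papain WT. The number of cells per lung is not used here, so more members and fewer Ccl5-negative cells cannot be told apart.

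**Figure D4:**
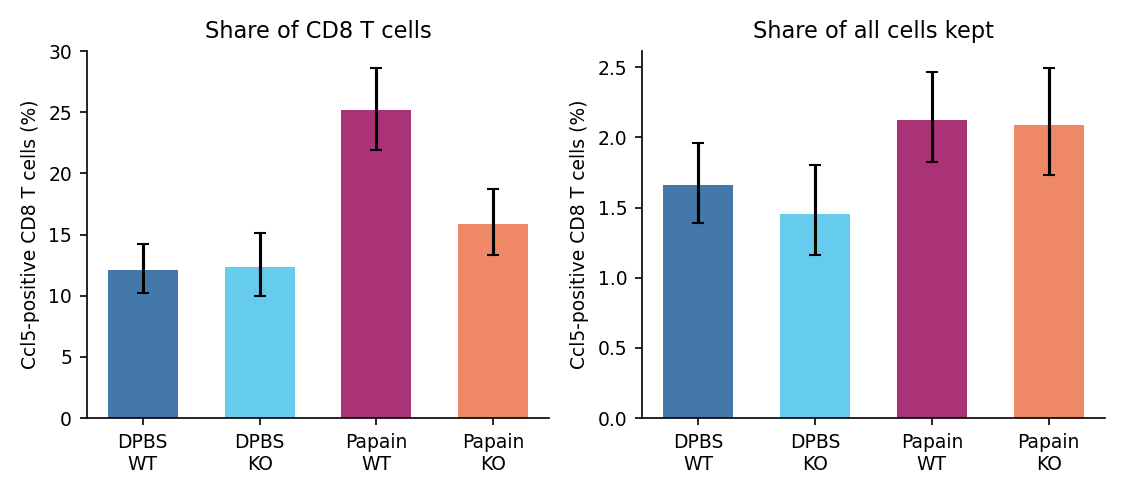
Members as a share (%) of CD8 T cells (left) and of all cells kept (right) in each library, with exact binomial 95% intervals of the cell counts. Papain WT was at 25.1% of CD8 T cells and at 2.13% of all cells, beside 15.9% and 2.09% in Papain KO.

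Gene levels in members were compared between libraries as ratios of summed counts, for genes with at least 100 UMIs in the pair, and a ratio of 2 or more is counted with no test. Between KO and WT in DPBS, 2322 genes were compared, 19 (0.818%) at least 2-fold higher in KO and 39 (1.68%) at least 2-fold lower. In papain 5 of 3342 (0.15%) were higher in KO and 28 (0.838%) lower. Papain against DPBS in WT gave 8 of 3273 higher (0.244%) and 16 lower (0.489%), and in KO 17 of 2362 higher (0.72%) and 4 lower (0.169%). The comparisons share libraries, so a library that stands apart enters 2 of them. Median log2 ratios over all genes compared lay between -0.05 and 0.02.

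Some of these ratios moved with transcripts of another lineage. The alveolar macrophage markers summed to 1100, 117, 1279 and 533 CPM in members and the neutrophil markers to 511, 17.9, 32.2 and 686, so that DPBS KO was the lowest in both. Neutrophil genes S100a8 and S100a9 had 187 and 284 UMIs in DPBS WT members, of which 179 and 276 were in 1 cell each. In Papain KO, S100a9 had 461 UMIs with 238 in 1 cell, against 2 in DPBS KO and 24 in Papain WT. The macrophage gene Chil3 had 1355 UMIs in Papain WT with 870 in 1 cell, and 33 in DPBS KO with at most 2 in any cell. Retnla, a transcript of alternatively activated macrophages, had 120 UMIs in Papain WT and 0 in DPBS WT, and 1 once members with 5 or more second-lineage UMIs were removed. Without those members, 6 of the 39 lower genes and 8 of the 19 higher genes of KO against WT in DPBS were still past 2-fold, and 11 of 28 and 1 of 5 in papain. Of those sets, 8, 0, 5 and 2 genes belong to the filter itself.

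Gzmb, Serpinb9 and Gzma had the 3 highest ratios of KO to WT in DPBS. Gzma was at 220, 663, 68.0 and 155 CPM, higher in KO than in WT under both treatments, by 1.59 (1.38 to 1.81) in DPBS on the log2 scale and 1.19 (0.85 to 1.53) after papain. Without the second-lineage cells these were 1.57 and 1.55. Without the top 2% of cells by UMIs and cells with Trdc, Klrb1c or Ncr1 they were 3.55 and 2.27, both outside those intervals. These came from 542 against 65 UMIs in DPBS and 171 against 46 after papain. Papain over DPBS was -1.69 for WT (-2.03 to -1.37) and -2.10 for KO (-2.34 to -1.86) on the same scale. With a mitochondrial limit of 5% the value in WT became 0.13, and without the top 2% and Trdc, Klrb1c or Ncr1 cells -0.95. Gzmb was at 61.5, 233, 64.3 and 76.3 CPM, with a KO to WT ratio of 1.92 (1.53 to 2.33) in DPBS. Serpinb9, an inhibitor of granzyme B, was at 35.6, 120, 56.4 and 54.9 CPM (1.75, 1.22 to 2.29, in DPBS). Klrg1, a receptor of terminal effector cells, had 3, 36, 4 and 9 UMIs, in 2, 8, 3 and 5 cells. DPBS KO was the highest library for all 4 genes. Since Gzma UMIs came from 10 to 17 cells per library, with 123 of 554 in 1 cell of DPBS KO, cells and not UMIs set the precision, and the intervals are too narrow.

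Among the remaining genes past 2-fold in KO against WT in DPBS, the egress receptor S1pr4 was at 63.1, 163, 108 and 122 CPM (1.37, 0.95 to 1.79), the chromatin factor Kdm2b at 51.0, 146, 93.5 and 87.7 (1.52, 1.07 to 1.98) and the nuclear receptor Rora at 38.8, 93.3, 78.3 and 58.0 (1.26, 0.73 to 1.81). In each of them DPBS WT was the lowest library and DPBS KO the highest. Ift20 was the 7th lowest gene of KO against WT in papain and had 76 UMIs in the DPBS pair, under the minimum of 100. Papain against DPBS in WT gave Dnaja4, a heat shock cochaperone (1.22, 0.60 to 1.88), Ly6a, an interferon-induced surface antigen also called Sca-1 (1.12, 0.47 to 1.80), and Sod1, the cytosolic superoxide dismutase (1.10, 0.63 to 1.60).

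The lists were then described by their ratios between conditions, with no test. Of 16 AKT-mTOR genes with enough UMIs, 15 had a lower level in KO than in WT under papain (median log2 ratio -0.26 against -0.05 over all genes), and 14 of 17 a higher level in papain than in DPBS within WT (median 0.35 against 0.02), with Rps6kb1 alone past 2-fold. Both contrasts use Papain WT. Between genotypes under papain, 0 of the 16 were past 2-fold. The share of all genes on each side of 0 was not counted for any of these lists. In DPBS the same list gave 6 above and 5 below 0. Actin, annexin and S100 genes were lower in papain than in DPBS for 22 of 25 in WT (median -0.18 against 0.02 over all genes). In KO 16 of 23 were lower (median -0.11 against -0.02). Of 13 cytotoxic granule genes, 4 were at least 2-fold higher in KO than in WT in DPBS, where 0.818% of all genes were. In papain 1 of 15 was, against 0.15% of all genes. The list had medians of 0.18 and -0.02. Of 14 naive and recirculation genes, 0 passed 2-fold between genotypes under either treatment, which the low shares over all genes also give.

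**Figure D5:**
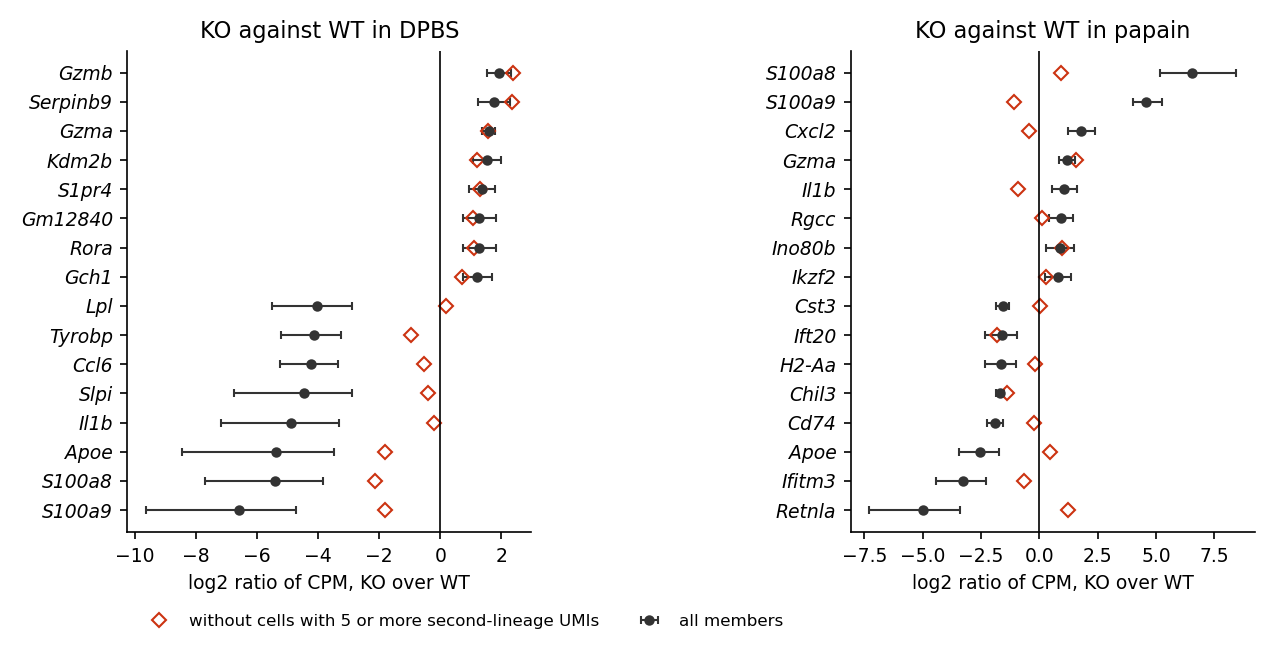
Log2 ratio of CPM, KO over WT, for the 8 highest and 8 lowest genes in DPBS (left) and papain (right), with 95% counting intervals (black) and the value without members that held 5 or more second-lineage UMIs (open diamonds). Gzma kept values of 1.57 and 1.55, and S100a9, a gene of that filter, went from 4.59 to -1.07 in papain.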

How the data were processed

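Lung CD45.2-positive cells were profiled by 10x 3′ sequencing in 4 libraries, 1 per group. The authors counted reads with Cell Ranger (3.1.0 in the file headers; mm10 in the submitters' processing notes) and deposited raw UMI counts per gene and cell barcode, with no normalisation. Depth per library and per member is given above, and exact binomial and Poisson 95% intervals cover counting error only. Barcodes with more than 200 genes and under 15% mitochondrial UMIs were kept. No doublet caller was run, and instead counts were repeated without cells in the top 2% of UMIs or with Trdc, Klrb1c or Ncr1, and, chosen after seeing the data, without cells with 5 or more UMIs of a second lineage. Members, gene lists and rules were chosen with earlier results of these data known.

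Counts were summed per library and cell group. Cell groups were compared by edgeR 4.0.16 (R 4.3.3, quasi-likelihood test, TMM, filterByExpr, library as block, Benjamini-Hochberg), with DESeq2 1.42.0 as an alternative. The fit was also run on simulated counts with the same dispersion for every gene and libraries that differed in depth only. That run does not cover the pairing or genes whose UMIs come from few cells. Pairing comes from the design, since both cell groups of a pair were drawn from the same library. Libraries were compared as ratios of CPM with no test, a gene being counted at 2-fold or more with at least 100 UMIs in the pair. Genes named were the 10 highest and 10 lowest of each test that went the same way in 4 of 4 libraries, the 8 highest and 8 lowest of each ratio, up to 4 most abundant and 4 most changed of each list, the targeted gene, and genes of cell state. A few of these genes and a planned split of the members are not reported here. Shares of cells with a Ccr7 UMI were compared between cell groups after thinning each cell to 2000 UMIs. The shares of members per library and the shares within members by granzyme were not thinned. Python 3.11.15, scipy 1.17.1 and matplotlib 3.10.9 were used. Promoter windows were matched by symbol, for 7256 of the 9162 genes tested against Ccl5-negative cells, 440 of those higher and 408 of those lower.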

Additional observations from a re-analysis of the deposited data

Results flagged for a closer look

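For 15 pairs of ratios the counting intervals lay on opposite sides of 0 in 2 contrasts of the same kind. Each contrast rests on 1 library per group, the contrasts share libraries, and the difference between them was not tested. All values are log2 ratios in the members.

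Between KO and WT, Rora, a nuclear receptor, was at 1.26 in DPBS and -0.43 in papain, and Gch1, the first enzyme of tetrahydrobiopterin synthesis, at 1.21 and -0.53. The myeloid genes Il1b (-4.90 and 1.08), S100a8 (-5.40 and 6.56) and S100a9 (-6.59 and 4.59) had the opposite order, with most S100a8 and S100a9 UMIs of DPBS WT in 1 cell. Without second-lineage cells Il1b came to -0.22 (3 against 4 UMIs) and -0.91 (11 against 24). S100a9 came to -1.81 (1 against 4) and -1.07 (7 against 17), so the signs no longer differed, on few UMIs. S100a8, with 1 to 5 UMIs left per library, came to -2.13 and 0.95. S100a8 and S100a9 are genes of that filter, so the fall of their counts was built in.

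Between papain and DPBS, Rora was at 1.01 in WT and -0.69 in KO, Serpinb9 at 0.67 and -1.12, and Ago2, a component of the RNA silencing complex, at 0.76 and -0.96. Among the 15 pairs, 7 genes of myeloid cells were lower in papain within WT and higher within KO, whereas other myeloid transcripts such as Chil3 and Retnla were higher in papain within WT. The values of the 7 were -5.96 and 6.00 for S100a8, -3.98 and 7.20 for S100a9, -1.62 and 4.41 for Cxcl2, -0.44 and 2.55 for Ccl6, and -0.39 and 2.82 for Tyrobp. Lyz2 was at -0.33 and 2.12, and Cd9 at -0.29 and 1.85. DPBS KO members held the fewest UMIs of the alveolar macrophage and neutrophil lists, at 117 and 17.9 CPM. Without second-lineage cells S100a9 (1.45) and Cxcl2 (0.10) turned positive in WT. Tyrobp (-0.34) and Lyz2 (-0.51) turned negative in KO, while Ccl6 (0.013) and Cd9 (0.027) were near 0 in KO. S100a9, Lyz2 and Cd9 are genes of that filter, so the fall of their counts was built in.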

How the results depend on the processing

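Of the 141 genes named against Ccl5-negative cells, 1771 of 1937 values under the alternatives kept direction and side of the threshold, 132 lost the call (46 at a mitochondrial limit of 5%), 30 gained one and 4 reversed; against NK cells 423 of 428 were kept. In cells of 3000 to 8000 UMIs, Fcer1g (1.495), Tyrobp (0.16) and Stmn1 (-0.29) reversed, and Fcer1g was at 1.30 without cells of a second lineage. The cause was not tested.

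Calls are given as higher and lower. DESeq2 gave 315 and 240 against Ccl5-negative cells and 429 and 427 against NK cells. A limit of 5% gave 94 and 70, and 271 and 233, and cells of 3000 to 8000 UMIs 330 and 278, and 364 and 335. No filter on low counts gave 861 lower against Ccl5-negative cells. Without the library block, that is with no pairing, calls were 380 and 269, and 726 and 746. Leaving out 1 library gave 366 to 463 and 307 to 456 against Ccl5-negative cells, and 479 to 760 and 434 to 741 against NK cells. The lowest count of each came without Papain KO.

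The log2 ratio of shares between KO and WT became -0.64 in DPBS at a limit of 5%, and in papain -1.08 in cells of 3000 to 8000 UMIs and -0.027 over all cells kept. That between papain and DPBS in WT became 0.74 at a limit of 5% and 0.36 over all cells kept.

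Counts of 2-fold genes follow in the order KO against WT in DPBS, the same in papain, papain against DPBS in WT, and in KO, higher and then lower in each. A minimum of 50 UMIs gave 42 and 121, 15 and 79, 44 and 42, and 57 and 12, and one of 200 gave 10 and 13, 3 and 7, 0 and 3, and 6 and 2. At a limit of 5% the counts that moved were 40 higher in the first, 3 higher in the second, 5 and 7 in the third, and 13 lower in the last. Without second-lineage cells they were 11 and 2, 2 and 6, 1 lower in the third, and 5 and 7. Without the top 2% and innate-like cells they were 13 and 29 in the third and 7 and 8 in the last. A Ccl5 minimum of 2 gave 10 higher in the last, and the mean over cells 16 higher in the third.

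Ratios that reversed without second-lineage cells were Lpl (0.19) for KO against WT in DPBS; S100a9 (-1.07), Cxcl2 (-0.43), Il1b (-0.91), Retnla (1.21), Apoe (0.47) and Cst3 (0.042) in papain; Fn1 (-0.32), S100a9 (1.45), Il1b (1.94) and Cxcl2 (0.10) for papain against DPBS in WT; and Tyrobp (-0.34), Chil3 (-0.45) and Lyz2 (-0.51) in KO. Of these genes, Lpl, S100a9, Chil3 and Lyz2 belong to the second-lineage filter itself. At a limit of 5% Fn1 (-0.045) and Gzma (0.13) reversed in WT, and Chil3 (-0.91) and Lyz2 (-1.39) in KO. Chil3 was at -0.28 with a Ccl5 minimum of 2 and at -0.62 without the top 2% and innate-like cells.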
